A study of Mus musculus with 4 samples.

Results

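The Dlk1-Dio3 locus is an imprinted domain on the distal part of mouse chromosome 12. Here 10 of its genes were followed through poly(A) RNA-seq of embryonic stem cells with a knockout of Drosha, which encodes a nuclease. The 10 genes are the protein-coding genes Dlk1, Rtl1 and Dio3, the long non-coding RNAs Meg3, Rian and Mirg, and the microRNA genes Mir496a, Mir541, Mir412 and Mir369, out of 43629 genes in the count tables. They were chosen by their place in the locus with their knockout and wild-type counts already known: Mirg and the 4 microRNA genes because they were higher in knockout cells, and Meg3 and Rian after their values had been seen. Their differences are therefore given as a description, with no test. All 10 were found, and 9 had enough counts to enter the fit over all genes, the exception being Rtl1.

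In an imprinted domain the copy inherited from one parent is silenced by marks laid down in the germ line. At this locus Dlk1, Rtl1 and Dio3 are transcribed from the paternal copy, while Meg3, Rian, Mirg and the many microRNAs and small nucleolar RNAs (snoRNAs) among them come from the maternal copy and are thought to form one long transcription unit. Most microRNAs arise as hairpins within longer transcripts. DROSHA with its partner DGCR8 cuts the hairpin out of the primary transcript in the nucleus, and pluripotent mouse cells in which the maternal unit is silent are known to form animals poorly.

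The study compared 2 Drosha knockout libraries with 2 wild-type libraries, all from blastocyst-derived embryonic stem cells of 129/Ola background kept in serum plus LIF, the cytokine that holds such cells undifferentiated. KO1 lacks the proline-rich region of Drosha and KO2 the region rich in arginine and serine. Each allele was made with paired CRISPR/Cas9 cuts, is represented by 1 library, is labelled passage 7, and carries a mark d5 in its title that the labels do not explain. WT1 and WT2 are E14 cells, a widely used embryonic stem cell line, at passages 33 and 42, and both are labelled as re-used. Genotype, passage and origin of the libraries coincide and cannot be told apart. The KO libraries differ by allele and the WT libraries by passage, and the labels do not say whether libraries of one genotype were grown and prepared separately. P-values therefore cover only the spread among these 4 samples, part of which may be technical. Total counts ran from 29264632 (KO1) to 42322129 (KO2). The KO libraries were far closer to each other (chi-square of 2.26 per degree of freedom over genes) than the WT libraries were (167 per degree of freedom).

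Drosha itself stood at 158 and 158 CPM (counts relative to the library size, scaled by the TMM method) in KO1 and KO2, against 364 and 357 CPM in WT1 and WT2. It fell by 1.19 ± 0.11 (SE) on the log2 scale (edgeR quasi-likelihood test, Benjamini-Hochberg adjusted p = 0.0482). DROSHA protein was not measured in these libraries. Stem cell identity markers were high in every library: the 8 genes of that list, Pou5f1 and Nanog among them, summed to 6543 and 6608 CPM in KO1 and KO2, against 5569 and 6358 CPM in WT1 and WT2. Markers of other cell types were not equal between the groups. The 8 endoderm markers summed to 51.0 and 50.04 CPM in KO1 and KO2, against 196 and 346 CPM in WT1 and WT2. All 8 were lower in both KO libraries than in both WT libraries, as were 34.8% of all genes tested. Of the 7 endoderm markers tested, 2 fell (Cubn and Lama1) and 0 rose by edgeR, with 1.94% falling over all genes. The 7 neural markers summed to 87.7 and 86.5 CPM in KO1 and KO2, against 44.5 and 50.04 CPM in WT1 and WT2, mostly through Tubb3. Of the 4 neural markers tested, 2 rose (Pax6 and Tubb3) and 0 fell by edgeR, with 3.51% rising over all genes. Both KO libraries lay above both WT libraries for 3 of the 7, as for 36.5% of all genes tested. Map2 went the other way, at 10.3 and 10.6 CPM in KO1 and KO2, against 12.5 and 12.5 CPM in WT1 and WT2. Dcx was at 0 in every library. The 7 trophoblast markers summed to 35.7 and 33.7 CPM in KO1 and KO2, against 30.6 and 13.1 CPM in WT1 and WT2, mostly through Krt8 and Krt18. Both KO libraries lay above both WT libraries for 2 of the 7, while Elf5 was lower in both KO libraries. None of the 3 trophoblast markers tested passed. In bulk RNA, a different number of cells of some type and a different amount of RNA per cell cannot be told apart.

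The 4 microRNA genes chosen all lie within Mirg, and their hairpins are the kind of structure DROSHA cuts. The hairpins are printed because the knockout libraries held reads over them; sequences are RefSeq's for build GRCm38.p6, plus strand, 5′ to 3′, with the mature arms in capitals.
Mir496a (chr12:109739119-109739197): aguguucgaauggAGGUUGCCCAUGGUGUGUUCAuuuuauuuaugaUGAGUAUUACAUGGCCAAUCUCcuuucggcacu
Mir541 (chr12:109742409-109742498): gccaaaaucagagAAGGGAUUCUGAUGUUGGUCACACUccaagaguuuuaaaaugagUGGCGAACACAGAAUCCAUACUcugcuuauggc
Mir412 (chr12:109743289-109743368): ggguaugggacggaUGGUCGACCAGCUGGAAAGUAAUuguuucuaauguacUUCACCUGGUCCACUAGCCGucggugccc
Mir369 (chr12:109743418-109743496): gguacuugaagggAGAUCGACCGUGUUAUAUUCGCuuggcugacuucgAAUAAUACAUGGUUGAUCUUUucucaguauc

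The mature arms show how far these neighbours differ in the part that pairs with target messages. Capitals here mark the seed, bases 2 to 8 from the 5′ end.
miR-496a-5p: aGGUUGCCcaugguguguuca
miR-496a-3p: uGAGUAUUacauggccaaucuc
miR-541-5p: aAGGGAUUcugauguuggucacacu
miR-541-3p: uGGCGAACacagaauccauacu
miR-412-5p: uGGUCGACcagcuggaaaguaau
miR-412-3p: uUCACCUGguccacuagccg
miR-369-5p: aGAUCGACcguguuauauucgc
miR-369-3p: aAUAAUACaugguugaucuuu
miR-453: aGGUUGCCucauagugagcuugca
The 8 arms of the 4 genes carry 8 distinct seeds. Of these, 1 recurs elsewhere in the domain: miR-453, also encoded within Mirg, has the seed of miR-496a-5p. Over the whole domain, RefSeq gave 114 mature arms from 61 microRNA genes, some of which are not in the files. These arms had 104 distinct seeds, 10 of which were shared by more than 1 arm. The 10 include the seed of miR-3070-5p, an arm encoded by both Mir3070a and Mir3070b. RefSeq sequence was found for 54 of the 59 microRNA genes of the domain in the files.

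Both KO libraries lay above both WT libraries for 8 of the 10 genes, Rian and Dio3 being the exceptions, and for 7 of the 9 genes in the fit. Over all 17022 genes in the fit, 36.5% had both KO libraries above both WT libraries and 34.8% had both below, and 5.45% passed an adjusted p of 0.05 by edgeR. Since these same values chose the genes, nothing is read from that comparison.

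**Figure D1:**
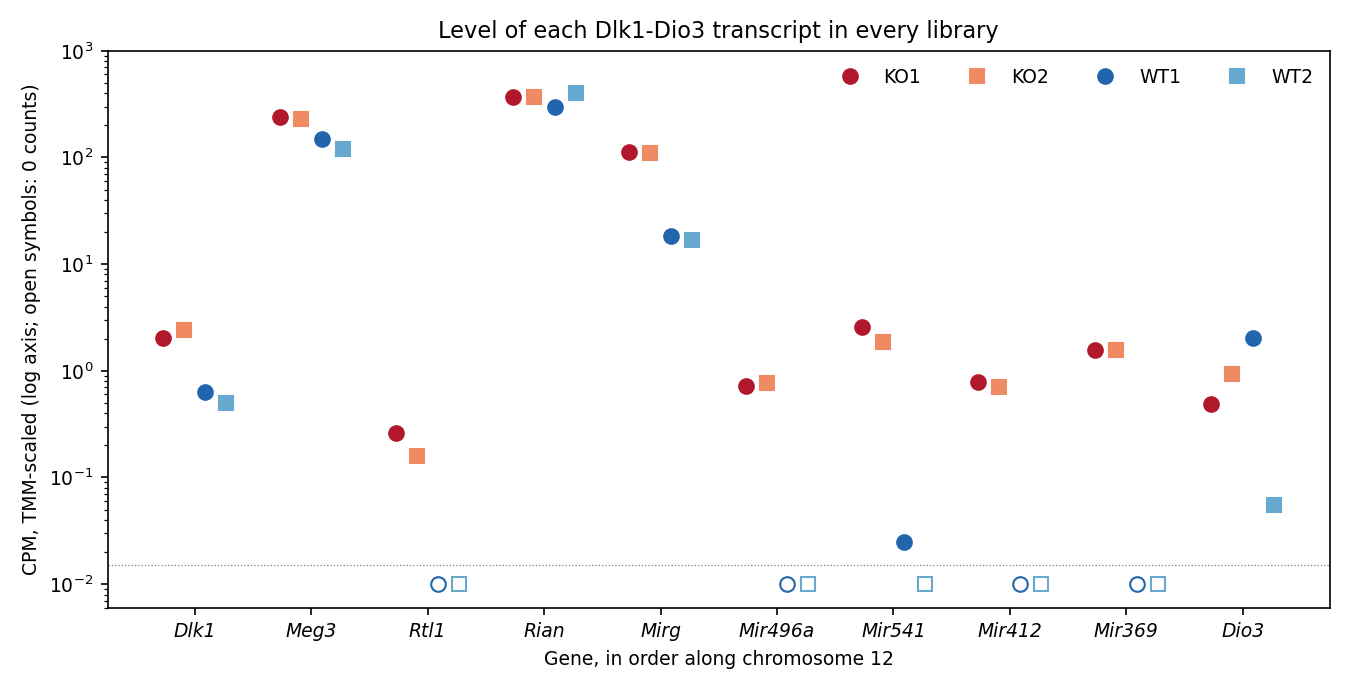
TMM-scaled CPM (log axis) of the 10 locus transcripts in KO1, KO2, WT1 and WT2, in order along chromosome 12. Open symbols under the dotted line are libraries with 0 counts. KO and WT symbols are apart for 8 genes and overlap for Rian and Dio3.

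Mirg (ENSMUSG00000097391, chromosome 12, 109729764 to 109749460, build mm10, plus strand) is the long RNA at the distal end of the maternal unit and hosts microRNAs in its exons and introns. Its level was 112 and 109 CPM in KO1 and KO2, against 18.3 and 16.9 CPM in WT1 and WT2. The groups did not overlap, and the libraries of each group were close together. The KO mean was 111 ± 1.64 CPM and the WT mean 17.6 ± 0.953 CPM (SD, n = 2 each), a log2 difference of 2.65 ± 0.13 (SE). Both alleles gave a like value, at 2.66 for KO1 and 2.63 for KO2 over the WT mean (log2 with a prior count of 2). Across all the alternative fits the Mirg difference stayed between 2.52 and 2.79.

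Meg3 (ENSMUSG00000021268, 109541001 to 109571726, plus strand), the long RNA at the proximal end of the same unit and a growth-restraining gene in several tissues, differed less. It stood at 239 and 231 CPM in KO1 and KO2, against 150 and 120 CPM in WT1 and WT2. The groups did not overlap. The KO mean was 235 ± 5.80 CPM and the WT mean 135 ± 20.9 CPM (SD, n = 2 each), a log2 difference of 0.80 ± 0.16 (SE). It was 1.01 with GC content and length trends removed.

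Rian (ENSMUSG00000097451, 109603940 to 109661716, plus strand) lies between Meg3 and Mirg and hosts snoRNAs. It stood at 365 and 372 CPM in KO1 and KO2, against 300 and 405 CPM in WT1 and WT2. The KO libraries fell inside the range of the WT libraries, so the groups overlapped. The KO mean was 369 ± 4.65 CPM and the WT mean 352 ± 74.2 CPM (SD, n = 2 each), a log2 difference of 0.07 ± 0.19 (SE). This value depended on the processing and on single libraries. Removing GC content and length trends gave 0.86. The longest annotated transcript of Rian is 35.8% GC, against 51.9% for that of Mirg and 49.2% for that of Meg3. Leaving out WT1 gave -0.13, and leaving out WT2 gave 0.31.

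Per kb of annotated exon, the 3 RNAs of the maternal unit stood in a different order in the groups. The length is that of all annotated exons of a gene merged. The length of the RNA present in these cells was not measured, so the order between genes rests on the annotation. Rian had a mean of 20.2 CPM per kb in KO libraries and 19.3 CPM per kb in WT libraries. Mirg had 15.2 CPM per kb in KO libraries and 2.41 CPM per kb in WT libraries, and Meg3 had 13.0 CPM per kb in KO libraries and 7.47 CPM per kb in WT libraries. By this measure Mirg lay above Meg3 in both KO libraries and below it in both WT libraries. By CPM without the length, Meg3 lay above Mirg in every library. Within a library, where scaling between libraries cancels, the ratio of Mirg to Meg3 per kb was 1.16 in KO1 and 1.18 in KO2, against 0.302 in WT1 and 0.349 in WT2. The ratio of Mirg to Rian was 0.765 in KO1 and 0.736 in KO2, against 0.152 in WT1 and 0.105 in WT2. The ratio of Meg3 to Rian was 0.660 in KO1 and 0.626 in KO2, against 0.504 in WT1 and 0.2998 in WT2. All of these ratios were higher in both KO libraries than in both WT libraries. Mirg was chosen for being higher in KO cells, and Meg3 and Rian were chosen after their values were seen. The ratios restate those values and are no separate support. Those over Rian also set transcripts of unlike GC content side by side.

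**Figure D2:**
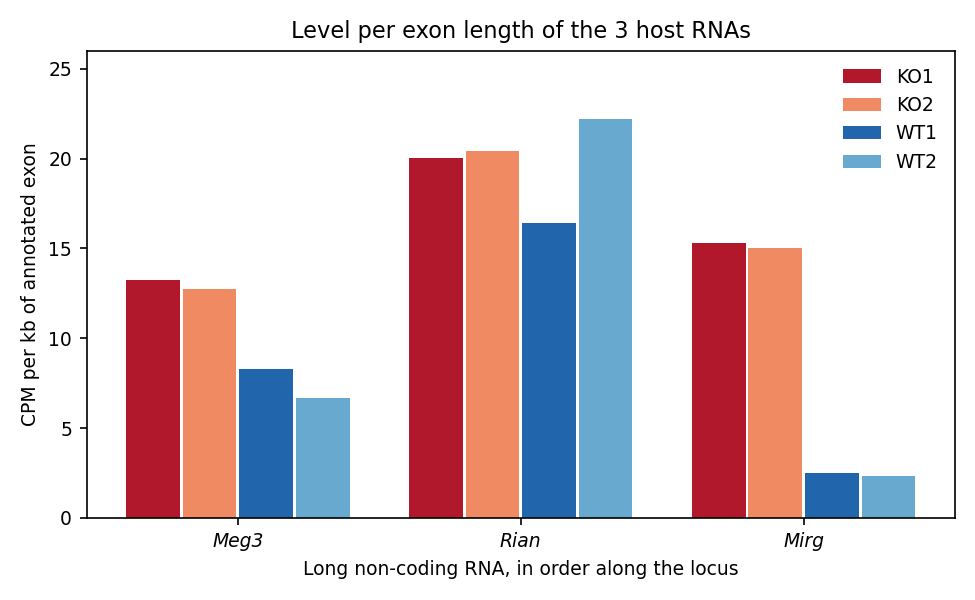
CPM per kb of annotated exon for Meg3, Rian and Mirg in KO1, KO2, WT1 and WT2. Mirg stands above 15 in both KO libraries and below 3 in both WT libraries, while Rian lies between 16 and 23 in all 4.

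Genes of the domain together took 0.0776% of all counts in KO1 and 0.0768% in KO2, against 0.0473% in WT1 and 0.0497% in WT2. Within that total, Mirg made up 15.2% in KO1 and 14.9% in KO2, against 3.84% in WT1 and 3.09% in WT2. Rian made up 49.6% in KO1 and 50.7% in KO2, against 63.0% in WT1 and 73.9% in WT2. Rian was the largest part of the domain's counts in every library. The shares restate the values known when Mirg and Rian were chosen, and are no separate finding.

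The 4 microRNA genes had counts in both KO libraries and almost none in the WT libraries. Mir369 (ENSMUSG00000065561, in a Mirg exon) had 48 counts in KO1 and 69 in KO2, against 0 in WT1 and 0 in WT2. At the level that 3 counts per library would allow in the WT libraries, it was at least 19.6-fold higher in KO cells, at 1.56 CPM in KO1 and 1.56 CPM in KO2. Mir412 (ENSMUSG00000065570), just upstream and also in a Mirg exon, had 24 counts in KO1 and 31 in KO2, against 0 in WT1 and 0 in WT2, at least 9.32-fold higher. These limits cover counting error only.

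Mir541 and Mir496a lie in introns of Mirg on the same strand. Mir541 (ENSMUSG00000076052) had 79 counts in KO1 and 83 in KO2, against 1 in WT1 and 0 in WT2. Its KO to WT ratio was 164, with an exact 95% counting interval of 28.9 to 6499. Mir496a (ENSMUSG00000070136) had 22 counts in KO1 and 34 in KO2, against 0 in WT1 and 0 in WT2, at least 9.34-fold higher. For all 4 genes both KO libraries lay above both WT libraries, as for 36.5% of all genes tested. The 4 genes were chosen for being higher in KO cells, so this separation is no finding.

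Reads counted to a hairpin came from poly(A) RNA and not from mature microRNA, which has no poly(A) tail. Whether a read over both a hairpin and its host was given to one, both or neither rests on options of the counting, which are not given in the sources used here, so hairpins in exons are uncertain. Of the microRNA genes within Mirg, 14 were in the files, of which 9 lie in exons and 4 in introns of its own strand. The exonic hairpins summed to 88 counts in KO1 and 116 in KO2, against 2 in WT1 and 0 in WT2, with 5 of the 9 genes at 0 in every library. The intronic hairpins summed to 129 counts in KO1 and 155 in KO2, against 11 in WT1 and 1 in WT2.

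Set against the counts of Mirg itself, the rate of hairpin reads depended on the genes chosen. Intronic hairpins had 37.4 counts per 1000 Mirg counts in KO1 and 31.9 in KO2, against 15.1 in WT1 and 1.64 in WT2. Exonic hairpins had 25.5 per 1000 in KO1 and 23.9 in KO2, against 2.74 in WT1 and 0 in WT2. Most of the KO counts in these sums are those of the 4 genes chosen for being higher there, so the separation is no finding.

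Without the 4 chosen genes, the intronic hairpins (Mir453 and Mir154) had 8.12 counts per 1000 Mirg counts in KO1 and 7.83 in KO2, against 13.7 in WT1 and 1.64 in WT2. These groups overlapped. The exonic hairpins left had 4.64 per 1000 in KO1 and 3.30 in KO2, against 2.74 in WT1 and 0 in WT2, on 16 counts in KO1 and 16 in KO2, against 2 in WT1 and 0 in WT2. Most of the intronic WT counts were those of Mir453, with 10 counts in KO1 and 18 in KO2, against 9 in WT1 and 1 in WT2.

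The protein-coding genes, which mark the paternal copy, were all low. Dlk1 (ENSMUSG00000040856, 109452823 to 109463336, plus strand) encodes a membrane-bound relative of the NOTCH ligands. It stood at 2.04 and 2.39 CPM in KO1 and KO2, against 0.626 and 0.500 CPM in WT1 and WT2. The groups did not overlap. The KO mean was 2.22 ± 0.245 CPM and the WT mean 0.563 ± 0.0893 CPM (SD, n = 2 each), a log2 difference of 1.97 ± 0.32 (SE), and 1.63 with GC content and length trends removed. These levels rest on 63 counts in KO1 and 106 in KO2, against 25 in WT1 and 18 in WT2.

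Rtl1 (ENSMUSG00000085925, 109589193 to 109600330, minus strand), a gene derived from a retrotransposon and needed in the placenta, had 8 counts in KO1 and 7 in KO2, against 0 in WT1 and 0 in WT2. It was at least 2.63-fold higher in KO cells and had too few counts to enter the fit. The 6 microRNA genes within its span that were in the files all overlap its exon, 5 of them on the opposite strand. Reads of the antisense transcript and of Rtl1 cannot be told apart unless the counting used strand, which the sources used here do not give.

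Dio3 (ENSMUSG00000075707, 110279068 to 110281097, plus strand) encodes the deiodinase that inactivates thyroid hormone and closes the domain. It stood at 0.486 and 0.924 CPM in KO1 and KO2, against 2.03 and 0.0555 CPM in WT1 and WT2. The WT libraries lay on either side of the KO libraries, so the groups overlapped, and the log2 difference was -0.55 ± 1.38 (SE). Leaving out WT1 turned it to 3.66, and leaving out WT2 gave -1.44. Counting the replicate number as a block also turned the sign, to 0.32.

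**Figure D3:**
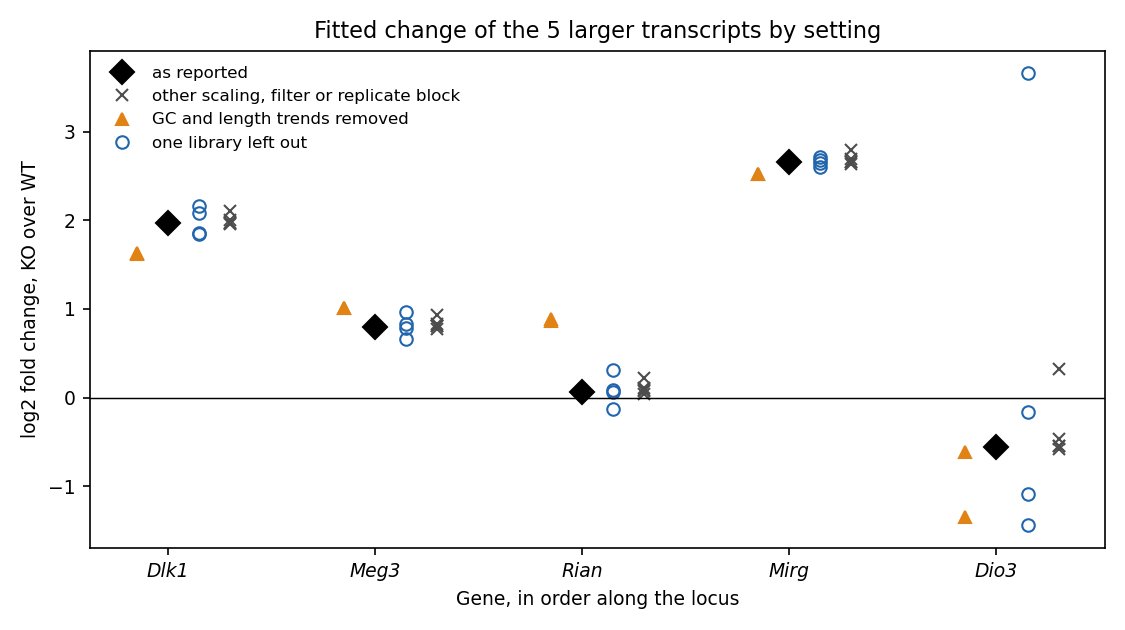
Log2 fold change, KO over WT, of Dlk1, Meg3, Rian, Mirg and Dio3 as reported (diamonds) and under the alternative fits. Mirg stays between 2.52 and 2.79, Rian moves to 0.86 with GC content and length trends removed, and Dio3 runs from -1.44 to 3.66.

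Beyond the 10 genes, the span from the start of Dlk1 to the end of Dio3 (828 kb) held 86 further genes in the files, 55 of them microRNA genes and 23 snoRNA genes. Only 14 of the 86 had enough counts to be tested. Of these, 4 rose in KO cells and 0 fell (edgeR quasi-likelihood test, Benjamini-Hochberg adjustment over all genes), while over all genes 3.51% rose and 1.94% fell. All 4 passed the filter on low counts through the KO libraries and so had to be higher there, and the count is therefore no support for a change in the domain. For falls, edgeR had 1 of the 14 at an unadjusted p under 0.05, with 17.7% over all genes. DESeq2 called 1 fall, with 10.4% over all genes.

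The 4 genes that rose were Mir433, Mir434, Mir432 and Mir3071, all within the span of Rtl1. Mir433 had 32 counts in KO1 and 56 in KO2, against 6 in WT1 and 7 in WT2 (log2 fold change 2.72 ± 0.38, SE, edgeR adjusted p = 0.0482). Mir434 had 55 counts in KO1 and 50 in KO2, against 7 in WT1 and 4 in WT2 (3.30 ± 0.48, edgeR adjusted p = 0.0482). Both lie opposite the Rtl1 exon, on the strand of the maternal unit. Mir432 had 21 counts in KO1 and 35 in KO2, against 0 in WT1 and 0 in WT2, at least 9.27-fold higher (edgeR adjusted p = 0.0482). Mir3071, annotated on the strand of Rtl1, had 33 counts in KO1 and 48 in KO2, against 2 in WT1 and 0 in WT2 (edgeR adjusted p = 0.0489). Its KO to WT ratio was 40.9, with an exact 95% counting interval of 10.96 to 343. No gene of the whole table passed with GC content and length trends removed or without KO1, so these calls and those named further on were lost there, and they were lost without KO2 as well.

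Mir127, another hairpin opposite Rtl1, had 40 counts in KO1 and 37 in KO2, against 4 in WT1 and 1 in WT2. Its difference of 3.95 ± 0.65 on the log2 scale missed the threshold (edgeR adjusted p = 0.0502). It passed with DESeq2, with no filter, with the replicate block and on leaving out either WT library, where the difference was 5.05 (without WT1) and 3.33 (without WT2). Summed over the 6 microRNA genes across Rtl1, there were 195 counts in KO1 and 240 in KO2, against 22 in WT1 and 14 in WT2. Those between Meg3 and Rtl1 summed to 13 counts in KO1 and 65 in KO2, against 2 in WT1 and 7 in WT2. The 25 between Rian and Mirg summed to 36 counts in KO1 and 68 in KO2, against 8 in WT1 and 9 in WT2. In these 3 stretches both KO libraries lay above both WT libraries, as they did for 36.5% of all genes tested. The 6 genes across Rtl1 passed the filter on low counts through the KO libraries, so the separation of their sum is no finding.

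The 4 microRNA genes within Rian overlapped, with 2 counts in KO1 and 9 in KO2, against 3 in WT1 and 0 in WT2. The 13 snoRNA genes within Rian summed to 22 counts in KO1 and 37 in KO2, against 51 in WT1 and 40 in WT2. Gm24564, the one snoRNA gene tested, had 13 counts in KO1 and 12 in KO2, against 25 in WT1 and 15 in WT2 (-0.61 ± 0.45, edgeR adjusted p = 0.369). Gm26945, a long RNA in an intron of Rian on its strand, stood at 0.486 and 0.654 CPM in KO1 and KO2, against 2.33 and 1.42 CPM in WT1 and WT2. Its groups did not overlap but it did not pass (-1.70 ± 0.41, edgeR adjusted p = 0.0721). Between Rian and Mirg, Gm37899 did not pass either (-1.26 ± 0.69, edgeR adjusted p = 0.252), and its value rested on WT2, being -0.31 without WT2 and -1.89 without WT1, where it passed. B830012L14Rik stood at 0.648 and 0.518 CPM in KO1 and KO2, against 0.2004 and 0.361 CPM in WT1 and WT2, with the KO libraries above, and did not pass (1.05 ± 0.46, edgeR adjusted p = 0.177).

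**Figure D4:**
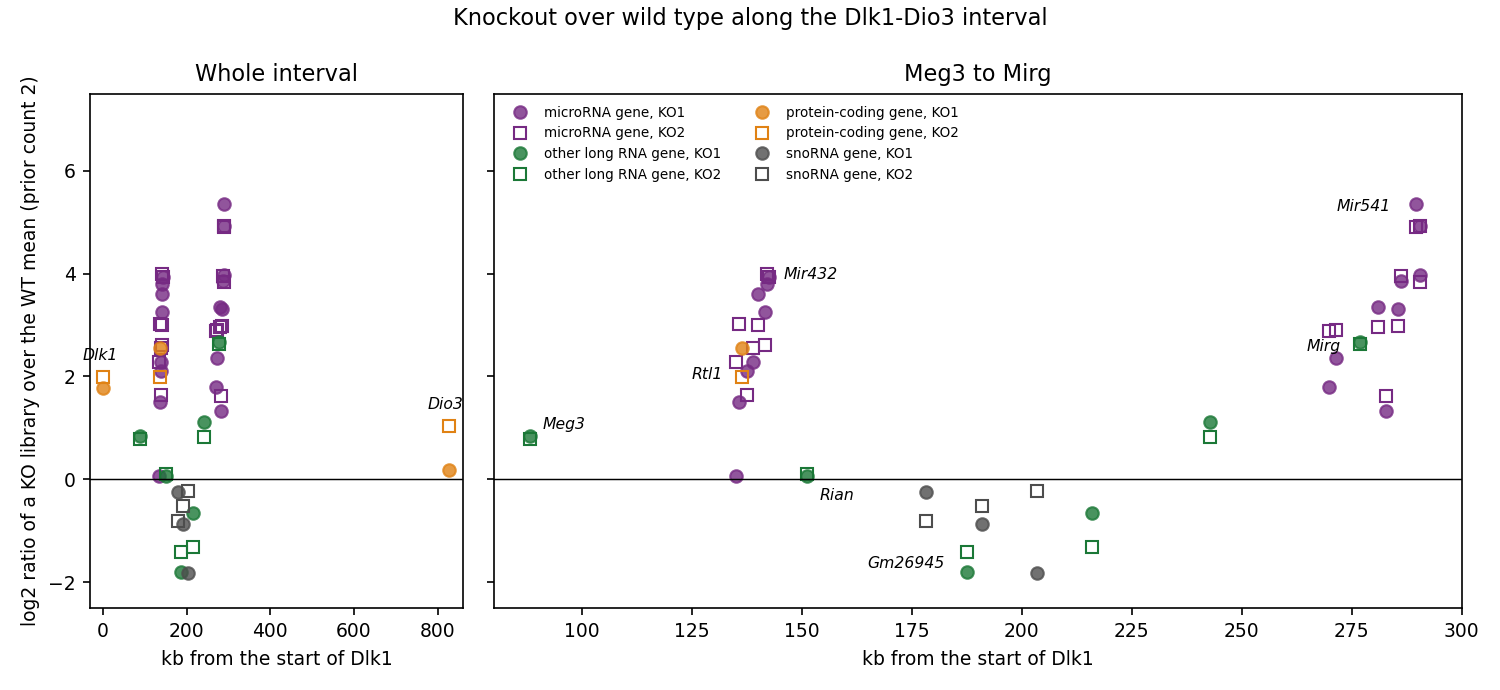
Log2 ratio of KO1 (filled circles) and KO2 (open squares) over the WT mean, with a prior count of 2, for genes of the domain with at least 15 counts in all, by distance in kb from the start of Dlk1. MicroRNA genes near Rtl1 and within Mirg lie above 0, and the snoRNA genes and Gm26945 within Rian lie below 0. Those within Mirg include the genes chosen for being higher in KO libraries.

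**Figure D5:**
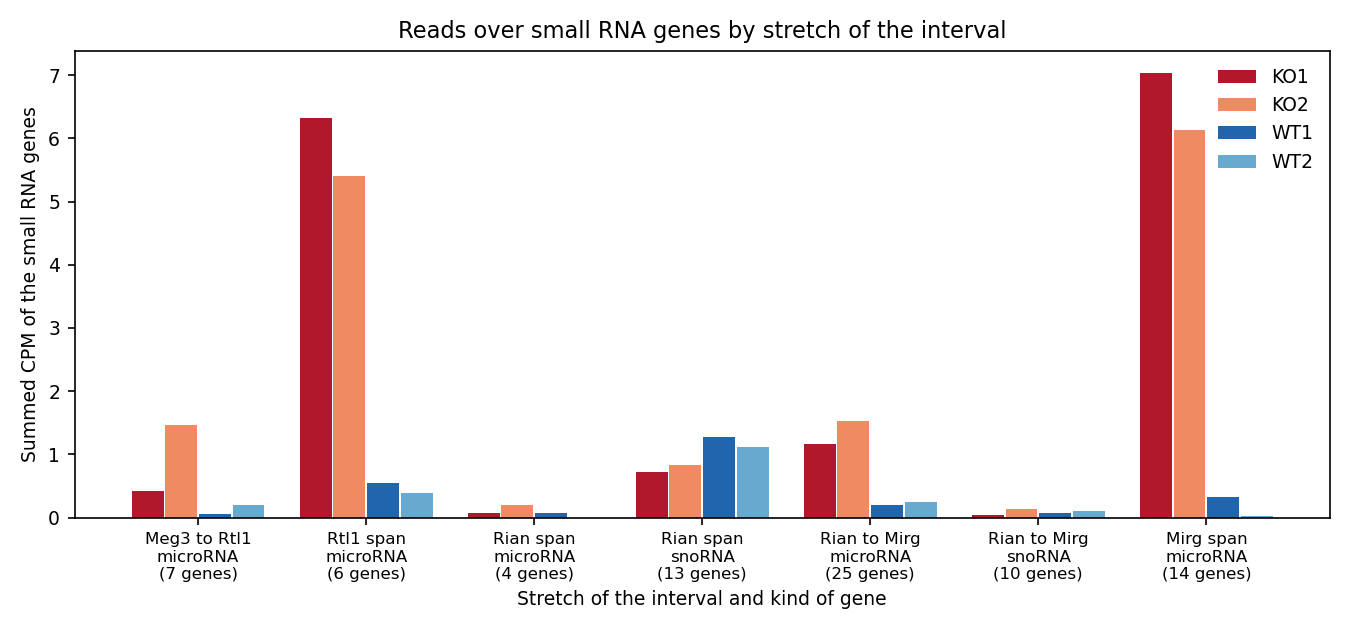
Summed CPM of the microRNA and snoRNA genes in each stretch of the domain, in KO1, KO2, WT1 and WT2. The KO bars stand above the WT bars for microRNA genes between Meg3 and Rtl1, across Rtl1, between Rian and Mirg and within Mirg. They stand below the WT bars for snoRNA genes within Rian. The bars overlap for microRNA genes within Rian and snoRNA genes between Rian and Mirg. Within Mirg, most KO counts are those of genes chosen for being higher there. Genes across Rtl1 passed the filter on low counts through the KO libraries. The separation in those stretches is therefore no finding.

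Outside the domain, the 10 nearest protein-coding genes tested on each side served as neighbours that are not part of the imprinted unit. Of the 20 genes, 2 rose in KO cells and 0 fell by edgeR, with 3.51% rising and 1.94% falling over all genes. By edgeR, 4 falls had an unadjusted p under 0.05, with 17.7% over all genes. DESeq2 called 2 falls, with 10.4% over all genes. The median log2 fold change of the 20 genes was 0.14, against -0.02 over all genes tested. Those that rose, Mok, a protein kinase gene, and Ankrd9, lie 527 kb and 694 kb beyond Dio3. Mok stood at 31.0 and 28.9 CPM in KO1 and KO2, against 12.7 and 9.91 CPM in WT1 and WT2 (1.41 ± 0.19, edgeR adjusted p = 0.0482). Ankrd9 stood at 10.6 and 8.75 CPM in KO1 and KO2, against 2.68 and 2.28 CPM in WT1 and WT2 (1.96 ± 0.24, edgeR adjusted p = 0.0482, and 0.67 with GC content and length trends removed). The nearest neighbours did not pass: Begain, on the Dlk1 side, had 0.27 ± 0.73 (edgeR adjusted p = 0.810), and Ppp2r5c, on the Dio3 side, had -0.17 ± 0.13 (edgeR adjusted p = 0.398). Over the 555 tested genes of chromosome 12 outside the domain, 13 rose and 13 fell by edgeR, with 3.51% and 1.94% over all genes. The median of these 555 genes was -0.17.

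Of 22 genes that set, keep or erase imprints or act at this locus, 1 rose and 0 fell by edgeR, with 3.51% rising and 1.94% falling over all genes. By edgeR, 7 falls had an unadjusted p under 0.05, with 17.7% over all genes. DESeq2 called 2 rises and 6 falls among them, with 12.2% rising and 10.4% falling over all genes. The median log2 fold change was -0.20, against -0.02 over all genes tested. Both KO libraries lay below both WT libraries for 11 of the 22 and above them for 5, with 34.8% and 36.5% over all genes. The WT libraries also differed from each other here. The log2 ratio of WT2 to WT1 ran from -2.78 (Dppa3) to 0.73 (Suz12). Its median was -0.35, against -0.01 over all genes tested. The gene that rose was Aff3, which encodes a factor known to bind at the control region of this domain. It stood at 8.88 and 8.68 CPM in KO1 and KO2, against 3.08 and 2.47 CPM in WT1 and WT2 (1.66 ± 0.23, edgeR adjusted p = 0.0482, and 1.49 with GC content and length trends removed). Zfp445 and Zfp57, which encode zinc finger proteins that keep imprints through the early embryo, did not pass. Zfp445 stood at 35.7 and 36.0 CPM in KO1 and KO2, against 92.7 and 67.4 CPM in WT1 and WT2 (-1.16 ± 0.20, edgeR adjusted p = 0.0514). Zfp57 stood at 406 and 400.5 CPM in KO1 and KO2, against 634 and 572 CPM in WT1 and WT2 (-0.58 ± 0.12, edgeR adjusted p = 0.0615). For both genes the KO libraries lay below the WT libraries. Dnmt3a, a DNA methyltransferase that lays imprints down in germ cells, had 0.66 ± 0.13 and did not pass (edgeR adjusted p = 0.0586). Zfp445, Zfp57 and Dnmt3a were singled out after their values were seen.

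Meg3 has a methylated promoter on the paternal copy, and its start is shown for the letters bound by ZFP57. ZFP57 binds the hexamer TGCCGC when it is methylated. The RefSeq window of 300 bases around the first Meg3 start (GRCm38.p6, chr12:109540746-109541045, plus strand, 5′ to 3′) held 1 match, read on the other strand and capitalised here.
Meg3 window: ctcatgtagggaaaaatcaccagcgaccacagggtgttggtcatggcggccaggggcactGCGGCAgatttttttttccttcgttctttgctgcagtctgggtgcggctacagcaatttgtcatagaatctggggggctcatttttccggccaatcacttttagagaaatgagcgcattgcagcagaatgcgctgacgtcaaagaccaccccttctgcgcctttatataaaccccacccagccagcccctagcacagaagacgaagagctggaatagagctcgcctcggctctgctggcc
On either strand, 11.6% of 32851 such windows over all genes held the hexamer. The Meg3 window had 13 CpG sites, against a median of 7 over all windows, and the windows of Dlk1, Rian, Mirg and Dio3 held no match. The Mirg window (chr12:109734731-109735030) lies inside the gene, past its annotated start at 109729764, so that start was not searched. No window of Rtl1 was searched. A second RefSeq window of Meg3, at a start further into the gene (chr12:109545148-109545447), held no match and 1 CpG site. A match is no more than these letters in this window. DNA methylation was not measured in these libraries.

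Of 18 genes around DLK1 and DIO3 (NOTCH receptors and partners, deiodinases, thyroid hormone receptors and transporters, and factors of selenoprotein synthesis), 14 were tested, 1 rose and 0 fell by edgeR, with 0 falls by DESeq2 as well and a median log2 fold change of 0.31. Over all genes 3.51% rose and 1.94% fell by edgeR, and 10.4% fell by DESeq2. At an unadjusted p under 0.05, edgeR counted 1 fall, that of Sepsecs at -0.45 ± 0.15, with 17.7% over all genes. Notch4, a NOTCH receptor of blood vessels, stood at 23.5 and 23.2 CPM in KO1 and KO2, against 6.54 and 8.55 CPM in WT1 and WT2 (1.63 ± 0.20, edgeR adjusted p = 0.0482). That rise shrank to 0.27 with GC content and length trends removed and no longer passed. The other deiodinase genes, Dio1 and Dio2, had at most 0.0451 CPM in any library and were not tested. Thra, a thyroid hormone receptor gene, had 1.15 ± 0.33 and did not pass (edgeR adjusted p = 0.0901).

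Among 12580 genes with a mean log2 CPM of at least 1, those with a profile nearest to Mirg over the 4 libraries were Tmem191c, Prrx2, Pltp, Zic2 and Hspa1a. Their Euclidean distance from Mirg, on log2 CPM centred on each gene's own mean, ran from 0.114 (Tmem191c) to 0.172 (Hspa1a). None lies on chromosome 12. Tmem191c stood at 18.0 and 16.8 CPM in KO1 and KO2, against 2.86 and 2.42 CPM in WT1 and WT2. Those nearest to Meg3 were Pigs, H6pd, Rnpepl1, Ubxn1 and an unnamed gene, at distances of 0.0151 (Pigs) to 0.0241. Over 4 libraries, such a likeness is a description.

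Dlk1 and Meg3 are also expressed in embryonic fibroblasts, so fibroblast and feeder cell markers were set beside them. The 12 markers summed to 61.3 and 56.3 CPM in KO1 and KO2, against 47.4 and 32.8 CPM in WT1 and WT2, mostly through Thy1. For 8 of the 12, both KO libraries lay above both WT libraries. Of these, Prrx1, Postn and Lum had too few counts to be tested, while Col3a1, Dcn, Thy1, Col1a1 and Pdgfrb were tested. Over all genes tested, 36.5% had both KO libraries above. Dcn, Lum, Postn and Prrx1 were at 0 in both WT libraries, and none of the 8 markers tested passed. In the other 4 the groups overlapped, with Acta2 at 1.10 and 1.19 CPM in KO1 and KO2, against 5.56 and 0.0555 CPM in WT1 and WT2. Dcn stood at 1.65 and 0.541 CPM in KO1 and KO2, against 0 in both WT libraries. Col3a1 stood at 1.52 and 0.316 CPM in KO1 and KO2, against 0.0250 and 0 CPM in WT1 and WT2. These matrix genes were higher in KO1 than in KO2, while Thy1, the largest marker of the list, stood at 40.8 and 41.5 CPM in KO1 and KO2. The log2 ratio of KO1 to KO2 was 0.03 for Mirg, 0.05 for Meg3 and -0.22 for Dlk1, and nothing is read from these ratios. The part of such cells, or of the endoderm, neural and trophoblast markers above, in the values of the locus was not tested.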

How the data were processed

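RNA-seq libraries were prepared from Trizol RNA with a reverse-stranded TruSeq protocol, per the labels' protocols. Reads were aligned with STAR 2.4.2a and counted with featureCounts 1.4.5-p1, with mm10 as the build, per the submitters' processing notes. The authors deposited raw counts per Ensembl gene for each library. The release of the annotation and the strand and overlap options are not given in the sources used here. The members and the gene lists were chosen with earlier results of these data known.

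Symbols matched 42462 of 43629 identifiers. Coordinates, exon length and GC content came from GENCODE M21 annotation of the same build, with GC content taken from the longest transcript of each gene. 22 of the 118 annotated identifiers of the domain were not analysed here, and 29 of the 96 in the files had no count.

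The count test used edgeR 4.0.16 (R 4.3.3): default filter with groups (minimum count 10, minimum total 15), TMM scaling, a quasi-likelihood fit of group over all 4 libraries, with p adjusted by Benjamini-Hochberg and called under 0.05. The standard error is the log2 fold change divided by the square root of F. In all, 597 genes rose and 330 fell. The smallest adjusted p was 0.0482, shared by many genes, and 6320 genes had an unadjusted p under 0.05. A count was worth 0.0236 to 0.0342 CPM before scaling, and a library at 0 allows up to 3 counts. These limits cover counting error only, since the sources record no collapsing of reads by molecular identifiers. Genes at 0 in both WT libraries were given as a bound, and those with 1 to 3 WT counts as a ratio with an exact 95% interval.

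Named genes were the 10 members, the other genes of the domain with the 8 largest mean CPM and any past the threshold, flanking genes past the threshold or nearest, up to 4 list members each way past the threshold, and the 5 nearest profiles. Others named were chosen after their values were seen. Replicate numbers of KO and WT did not pair the libraries (correlation of deviations 0.0461). Alternatives were DESeq2 1.42.0, library totals, upper-quartile scaling, no filter, a replicate block, removal of GC and length trends by lowess (span 0.3), and each library left out. The fit was also run on counts simulated with the same spread for all genes and both groups. The WT libraries here differed far more than the KO libraries, so the simulation is no check of these calls. Sequences, tables and plots were made in Python 3.11.15 (numpy 2.4.6; pandas 2.3.3; scipy 1.17.1; matplotlib 3.10.9).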

Additional observations from a re-analysis of the deposited data

How the results depend on the processing

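Which genes pass depended strongly on the setting, and the smallest adjusted p as reported was 0.0482. Counts are given as higher and lower in KO cells. Over all genes they were 597 and 330 as reported, 2073 and 1778 with DESeq2, 1608 and 1055 with no filter, 1353 and 576 with the replicate block, and 0 and 0 with library totals, upper-quartile scaling, GC and length trends removed, or the replicate block with GC and length correction. Those settings with 0 calls had 6116, 6267, 4291 and 3230 genes at an unadjusted p under 0.05, in that order. Leaving out 1 library gave 0 to 6967 higher and 0 to 6691 lower, the low end without KO1 and the high end without WT1, with the remaining single library taken to vary as the other group does.

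Among the other genes of the domain, 4 and 0 became 8 higher with no filter, 7 higher with the replicate block, 1 lower with DESeq2, and 0 to 13 higher and 0 to 2 lower with 1 library left out. Flanking genes, 2 and 0 as reported, became 4 higher and 2 lower with no filter, 2 lower with DESeq2, 1 lower with the replicate block, and 0 to 12 higher and 0 to 8 lower with 1 library left out. The imprint genes, 1 and 0, became 2 higher and 6 lower with DESeq2, 2 higher and 2 lower with no filter, 2 lower with the replicate block, and 0 to 11 higher and 0 to 16 lower with 1 library left out. The genes around DLK1 and DIO3, 1 and 0, became 2 higher with DESeq2, and 0 to 9 higher and 0 to 5 lower with 1 library left out. In all 4 groups no gene was called with library totals, upper-quartile scaling, or either GC correction. The cause was not tested. The replicate numbers share only a number, so the block result is no better founded than the others.

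Of the 9 members in the fit, 7 were above 0 in all 12 fits. Meg3 moved to 1.01 with GC and length trends removed and to 1.01 with the replicate block added to that, with 0.65 to 0.96 on leaving out 1 library. Mirg moved to 2.79 with library totals and to 2.52 with either GC correction, and Rian to 0.86 and, with the replicate block, 0.88, with -0.13 to 0.31 on leaving out 1 library. Mir541 ran from 6.26 to 9.33 and Mir3071 from 4.35 to 8.32 on leaving out 1 library, with 1 count of Mir541 and 2 of Mir3071 in WT1 and 0 in WT2. Library totals shift the median of all genes by 0.14. Signs turned for Dio3 (0.32 with the replicate block, -1.44 to 3.66 on leaving out 1 library, with 3.66 without WT1), Gm24564 (0.0080 with the replicate block and GC correction), Begain (-1.16 with GC and length trends removed, -1.03 with the block as well, -0.40 to 1.67 on leaving out 1 library, with -0.40 without WT2) and Ppp2r5c (0.20 with either GC correction). Depth limits Dlk1, Rtl1, Dio3 and the microRNA genes, all below 3 CPM.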
